A study of Mus musculus with 3 samples.

Results

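Voltage-gated sodium and calcium channels are membrane proteins that open when a neuron depolarises. Sodium channels carry the rising phase of the action potential, and calcium channels admit the calcium that triggers transmitter release and activates gene expression. Each channel has a large pore-forming alpha subunit, and auxiliary subunits set its surface level and gating: beta subunits for sodium channels, and beta and alpha2delta subunits for calcium channels. The genes were chosen by symbol: Scn followed by digits and a or b, or a symbol that starts with Cacna1, Cacna2d or Cacnb. The array carried 54 such probes for 32 genes, out of 39429 probes in all. Of these, 48 probes for 29 genes were kept, out of 27631 kept probes for 17699 genes. A probe was kept when it was well above background in the older-mother channel on all 3 arrays or in the young-mother channel on all 3 arrays.

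The study asked whether a mother's age alters the hippocampus of adult sons. The AMA (advanced maternal age) pools held total RNA of males at postnatal day 120 whose mothers were 15 to 18 months old, and the YMA (young maternal age) pools held RNA of males of the same age whose mothers were 3 months old. All fathers were 3 months old. Each group had 3 pools with equal amounts of hippocampal RNA from 3 animals each, so the spread is between pools and not between animals. Whether pools shared a litter is not stated, and the strain is not given in the sources used here. One AMA pool and one YMA pool were hybridised together on each array, with AMA always in Cy3 and YMA always in Cy5, so group and dye cannot be told apart. Values below are log2 ratios of AMA over YMA, so a positive value means a higher level in AMA pools, and a probe was called when limma's Benjamini-Hochberg adjusted p over all kept probes was below 0.05.

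The median signal over background was 58.1 to 62.3 intensity units in the AMA channel and 153 to 165 units in the YMA channel. Between 64.6% and 66.7% of probes were well above background in AMA pools, against 71% to 74.9% in YMA pools, and no spot was saturated. Neurons were represented: all 6 pan-neuronal and all 8 interneuron markers were measured. Of hippocampal subfield markers 4 of 4 for CA1, 3 of 4 for CA3 and 5 of 6 for dentate granule cells were measured. All 7 striatal and all 6 thalamic neuron markers were measured as well. Of the interneuron markers 1 of 8, Slc32a1, was lower in AMA pools at -0.36 (limma adjusted p = 0.0163). None of the 8 was called higher, and their median was 0.007. Of the pan-neuronal markers 2 of 6 were lower in AMA pools (Rbfox3 and Nefl) and none was called higher, with Map2 at 0.36, Nefm at 0.13 and Tubb3 at 0.12 and a median log2 ratio of 0.02. Their summed intensity was 69700 to 73300 in AMA pools and 74700 to 76200 in YMA pools. Of 5 excitatory neuron markers 2 were lower, with a median of -0.19. Of 10 choroid plexus markers 3 were lower in AMA pools and none was called higher, with a median of -1.075. Kcne2 of this list had log2 ratios of -0.53, 0.34 and 3.18 on arrays 1, 2 and 3. It was well above background in 3 AMA pools and 1 YMA pool. The summed intensity of the 10 was 9480 to 69200 in AMA pools and 79100 to 116000 in YMA pools. Ttr was the brightest of them, at a mean log2 intensity of 14.35 in AMA pools and 16.44 in YMA pools. Of all genes 12.2% were called lower and 7.29% higher. Of 7 leptomeningeal markers 5 were lower. The part of these lists in the channel values was not tested, and in whole tissue fewer cells of a type and less RNA per cell cannot be told apart.

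The channel genes moved in both directions and by small amounts. At the level of genes, each represented by its brightest kept probe, 5 of 29 were called (17.2%), against 19.5% of all genes. Scn1a and Cacnb4 were higher in AMA pools and 3 genes, Scn8a and Cacnb1 among them, were lower; with median centring Scn1a and Cacnb4 turned negative. By left-out array, 2 genes were higher and 1 lower without array 1, 1 was lower without array 2, and none was called without array 3. In these fits 12.2%, 2.65% and 0.105% of all kept probes were called. The median log2 ratio of the 29 genes was -0.02, against -0.03 over all genes, and no channel gene reached a 1.5-fold difference in either direction, which 233 genes on the array did. Over probes, 9 of 48 were called (18.8%), 4 higher and 5 lower, against 18.6% of all kept probes, of which 7.92% were higher and 10.7% lower. The channel probes ranged from -0.46 to 0.29, and their share of calls lay close to that of the array. At an unadjusted p below 0.05, 14 of the 48 probes passed (29.2%), against 38.6% of all kept probes. The AMA and YMA pools did not overlap for 15 of 48 probes, against 41.9% of all kept probes, and 24 of the 48 probes kept their sign over the 3 arrays, against 59.7% of all kept probes.

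**Figure D1:**
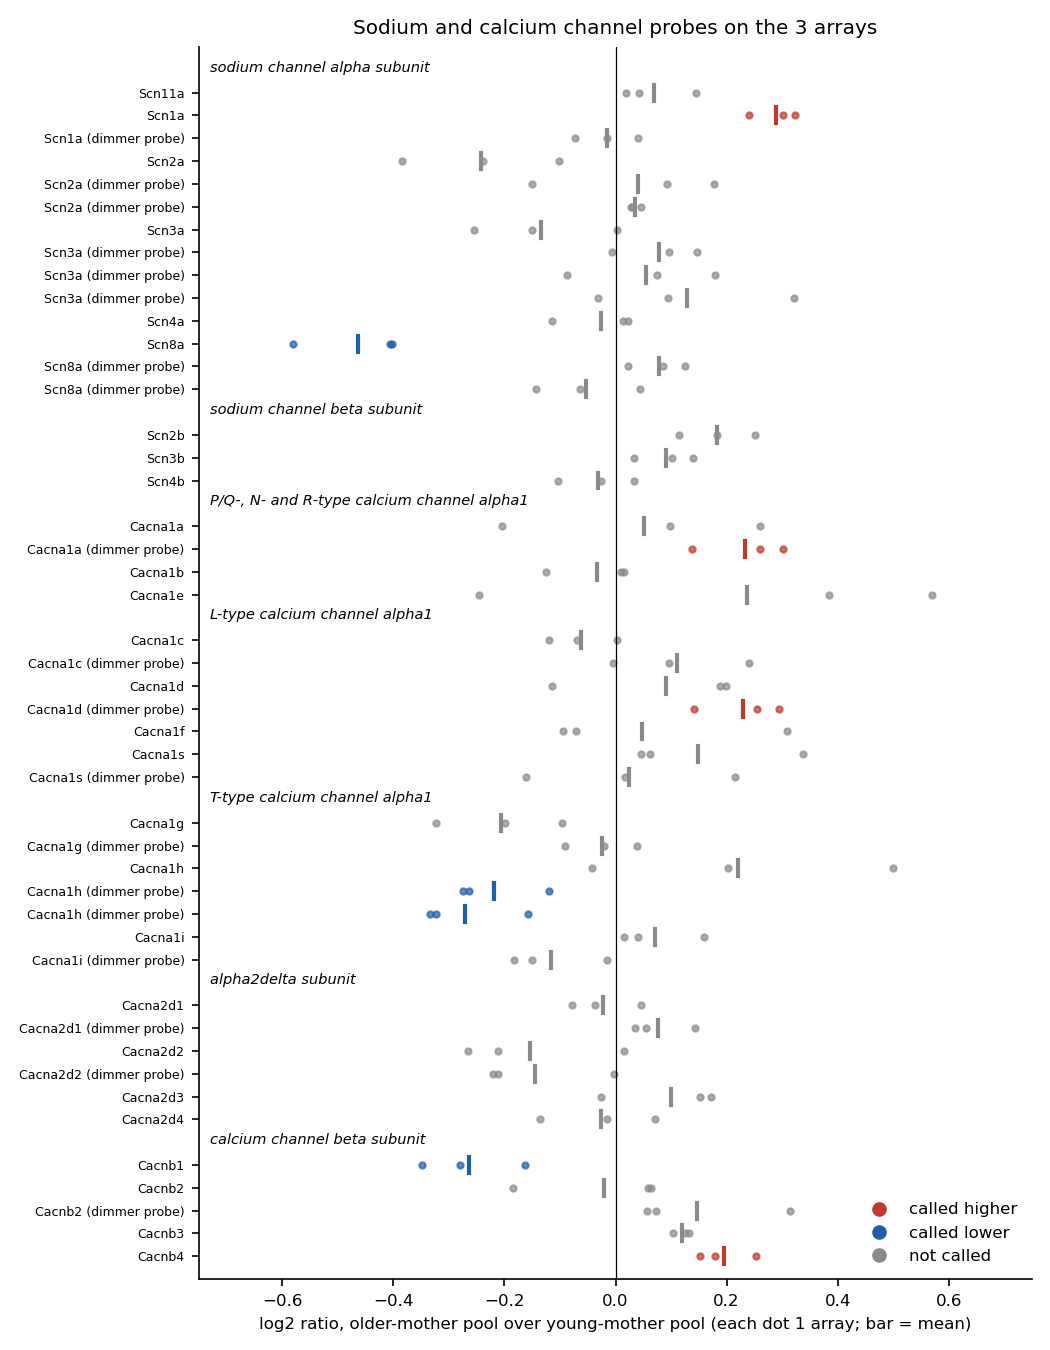
Log2 ratio of AMA over YMA for 46 of the 48 kept sodium and calcium channel probes, grouped by subunit class. Each dot is 1 array and each bar the mean of 3 arrays; red marks probes called higher, blue probes called lower and grey probes not called. The probes lie between -0.46 and 0.29, and several genes have 1 called probe and another that is not called. Scn1a, Cacnb4 and the called Cacna1a probe turn negative when arrays are centred on their median in place of the loess curve. The median of all genes is at -0.405 there, below these probes. The called Cacna1d probe turns negative with the scanner's processed signals and without background correction.

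Among the sodium channel pore subunits, Scn8a gave the lowest ratio of all channel probes. Scn8a encodes the main sodium channel of the mature axon initial segment and node of Ranvier. Its brightest probe had log2 intensities of 9.24, 9.10 and 9.05 in AMA pools 1, 2 and 3, against 9.64, 9.50 and 9.63 in the YMA pools of the same arrays. The 3 AMA pools lay below all 3 YMA pools. The log2 ratio was -0.46 ± 0.10 (SD, n = 3 arrays), a ratio of 0.725 (limma adjusted p = 0.0159). The probe was called in every alternative except the one without array 3, where the limma adjusted p was 0.0515. With arrays centred on their median its ratio was -0.93, where the median of all genes was -0.40.

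Scn8a was measured by 2 further probes, which were not called. One lies 109 kb upstream along the genome, near the start of the transcript, and had log2 ratios of 0.02, 0.12 and 0.09 on arrays 1, 2 and 3. The other lies 26.8 kb upstream and had ratios of -0.06, -0.14 and 0.04. So the 3 probes of the gene did not give the same value. The brightest probe lay lower than the first of these by 0.54 and lower than the second by 0.41 on the log2 scale, with limma adjusted p of 0.0283 and 0.0461. The first difference lost its call in 2 of 9 alternatives, without array 2 and without array 3 (limma adjusted p = 0.213 and 0.0667). The second lost it in 6 of 9: with the processed signals, with a normexp offset of 16, with the deposited table and without each array in turn (limma adjusted p = 0.0710 to 0.213). It stood at -0.30 without array 3 and at -0.997 with median centring. This test of probe differences was run over all 6479 pairs of a gene's brightest and other kept probes, and it was chosen after the values had been seen. The first 30 of the 60 bases of each Scn8a probe are shown because the brightest one differs from the others in its letters. Capitals mark the part of a run of alternating T and G that falls within these bases; the run starts at base 18 and is 16 bases long. All 3 lie on the plus strand of mm9, at chr15:100875702-100875761, chr15:100848863-100848922 and chr15:100766904-100766963 in the order given.
Scn8a, brightest and 3′-most probe: gcaggtgtgcacatgtaTGTGTGTGTGTGT
Scn8a, probe 26.8 kb upstream: ttcatcctggagatgttgctcaaatggaca
Scn8a, probe 109 kb upstream: acagcaagcccaagccaaacagtgacctgg

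Runs of this kind went with low ratios across the array. Of all kept probes, 73 held an alternating G and T run of at least 16 bases. In AMA pools 72 of the 73 were called lower than in YMA pools and none was called higher, against 10.7% called lower among all kept probes. Without array 2 the count was 53 and without array 3 it was 0, although the ratio stayed negative for all 73. Their median log2 ratio was -0.46, with quartiles of -0.49 and -0.40. The Scn8a probe sits in the middle of them, with 31 of the 73 below it. The median of these probes was negative in every alternative, from -1.06 with median centring to -0.42 without array 3, and the Scn8a probe was never farther from it than 0.13, the gap with median centring. Runs of at least 16 bases of other letter pairs had no probe called lower. Of 33 probes with A and C none was called and their median was -0.06, of 8 with C and T none was called, and of 9 with A and G 6 were called higher with a median of 0.23. The 16-base minimum was set after the Scn8a probe had been read, and the part of the run in the Scn8a value was not tested. Among the kept channel probes, 1 other held a run of at least 10 bases: the Scn3b probe, with 11 bases of A and G and a log2 ratio of 0.09 that was not called.

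**Figure D2:**
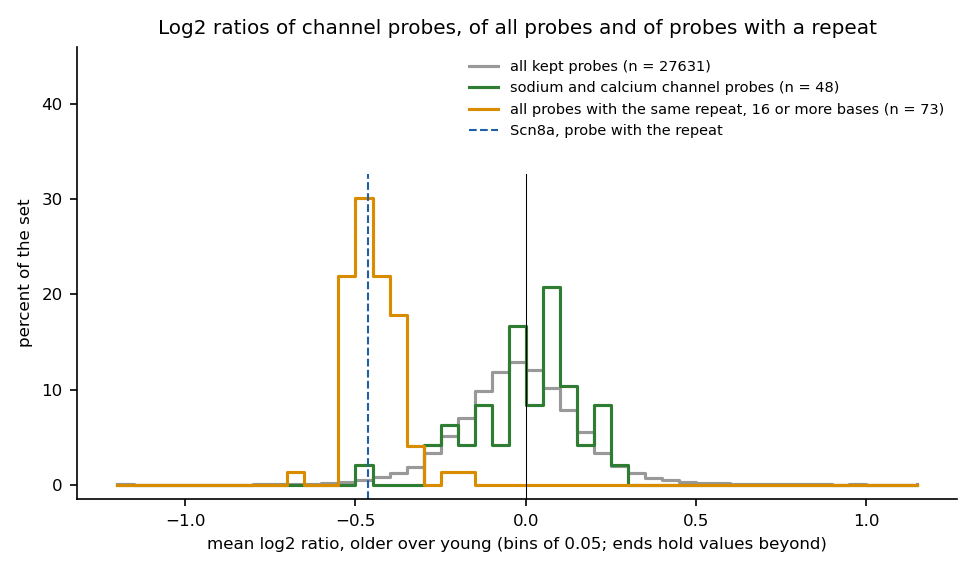
Distribution of mean log2 ratios of AMA over YMA in bins of 0.05, as a percent of each set, for all 27631 kept probes, the 48 sodium and calcium channel probes, and the 73 kept probes that hold the same repeat as the Scn8a probe. The dashed line marks the Scn8a probe at -0.46. The repeat probes cluster around their median of -0.46, apart from the bulk of the array, and the channel probes lie between -0.46 and 0.29.

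Scn1a was the sodium channel gene called higher in AMA pools. It encodes a pore subunit on which fast-spiking inhibitory interneurons depend. Its brightest probe had log2 intensities of 11.62, 11.71 and 11.67 in AMA pools, against 11.38, 11.38 and 11.37 in YMA pools, and the groups did not overlap. The log2 ratio was 0.29 ± 0.04 (SD, n = 3 arrays), 1.22-fold, with a limma adjusted p of 0.0205. With arrays centred on their median the ratio turned to -0.33, still 0.08 above the median of all genes under that scaling (-0.40). The limma adjusted p was 0.0505 with the scanner's processed signals, 0.108 without array 2 and 0.0666 without array 3. The other Scn1a probe, 62.5 kb upstream, had log2 ratios of 0.04, -0.02 and -0.07 and lay lower than the brightest by 0.30 ± 0.09 (SD, n = 3 arrays), with a limma adjusted p of 0.0384. With median centring this difference turned to -0.10 and was not called (limma adjusted p = 0.123). Its call was also lost, with the sign kept, in 6 of 9 alternatives (limma adjusted p = 0.0502 to 0.234). These were the processed signals, a normexp offset of 16, the deposited table and the fits without each array in turn.

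Neither Scn1a probe holds a run of 10 or more alternating bases, and their first 30 bases are given to show that they read different parts of the transcript. Both lie on the minus strand of mm9, at chr2:66111022-66111081 and chr2:66173498-66173557.
Scn1a, brightest probe: taaacgaaaactctattacggagaaaactg
Scn1a, probe 62.5 kb upstream: ttttgacaaactgtgtatttatgacaatga

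Scn2a, the sodium channel of immature and proximal initial segments, had log2 intensities of 12.59, 12.62 and 12.67 in AMA pools, against 12.98, 12.86 and 12.77 in YMA pools, for its brightest probe. The groups did not overlap, and the log2 ratio was -0.24 ± 0.14 (SD, n = 3 arrays), with a limma adjusted p of 0.0560. Its second probe, the mean of 10 spots on each array, had ratios of -0.15, 0.09 and 0.18, and its other dimmer probe had 0.05, 0.03 and 0.03. So Scn2a resembled Scn8a in one respect: its 3′-most probe gave the lowest ratio, lower by 0.28 than the probe of 10 spots (limma adjusted p = 0.0351), while the difference from the other did not pass (limma adjusted p = 0.0672). The difference that passed lost its call with the processed signals and without each array in turn (limma adjusted p = 0.0572 to 0.229). The brightest Scn2a probe was called lower in 5 of 15 alternatives, among them the separate-channel fit (limma adjusted p = 0.0232).

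Scn3a, expressed mainly before birth, was measured by 4 kept probes. The brightest had a log2 ratio of -0.13 and the other 3 had 0.06, 0.08 and 0.13, and none was called. Scn4a, the skeletal muscle channel, was at -0.03 and Scn11a, a sensory neuron channel, at 0.07, neither called. Scn7a, a sodium sensor, and Scn9a and Scn10a, both known from sensory neurons of the periphery, had 1 probe each, which was not kept. All 3 were not well above background in any AMA or YMA pool.

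Scn1a, Scn2a, Scn3a, Scn7a and Scn9a lie near each other on chromosome 2. Of these Scn1a was called higher while Scn2a and Scn3a were not called. In all, 8 of the 32 genes lie on chromosome 2 and 7 on chromosome 9.

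The 4 sodium channel beta subunits are single-pass membrane proteins that tune gating and act in cell adhesion, and none of them was called, and 2 of 4 had an unadjusted limma p below 0.05, against 39.5% of all genes. Scn2b came nearest. It had log2 intensities of 13.28, 13.32 and 13.33 in AMA pools and 13.16, 13.07 and 13.15 in YMA pools, which do not overlap. Its log2 ratio was 0.18 ± 0.07 (SD, n = 3 arrays), with a limma adjusted p of 0.0545, and it turned to -0.52 with median centring. Scn3b had ratios of 0.03, 0.14 and 0.10 on arrays 1, 2 and 3. Scn4b was at -0.03.

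Among the calcium channel pore subunits no gene was called by its brightest probe, although 4 dimmer probes were. At an unadjusted limma p below 0.05 Cacna1g passed as the only one of these 10 genes. Cacna1a forms the P/Q-type channel of presynaptic terminals. Its brightest probe had log2 ratios of -0.20, 0.10 and 0.26 on arrays 1, 2 and 3, which differ in sign. A dimmer probe only 0.223 kb away had 0.14, 0.26 and 0.30, a mean of 0.23 ± 0.09 (SD, n = 3 arrays), with a limma adjusted p of 0.0377. That probe turned to -0.26 with median centring, which is 0.14 above the median of all genes there. Its call was lost with the processed signals, with offset 16, without array 2 and without array 3 (limma adjusted p = 0.0527 to 0.178). In addition, the difference between the 2 probes did not pass (limma adjusted p = 0.144). Cacna1b, the N-type channel of presynaptic terminals, was well above background in 1 of 3 AMA pools and in all 3 YMA pools, was not called, and is given no ratio. Cacna1e, the R-type channel, varied most between arrays: its ratios were -0.25, 0.38 and 0.57, with an SD of 0.43.

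The L-type channels couple depolarisation to gene expression in the nucleus, and Cacna1c and Cacna1d are their neuronal pore subunits. Cacna1c had ratios of -0.12, -0.07 and 0.00 by its brightest probe, and 0.24, 0.10 and -0.01 by a dimmer one that was well above background in 2 of 3 AMA pools. Neither was called. For Cacna1d the brightest probe had -0.12, 0.20 and 0.19 and was not called. A dimmer probe had 0.25, 0.29 and 0.14, a mean of 0.23 with a limma adjusted p of 0.0370, but it turned to -0.02 with the scanner's processed signals and to -0.07 without background correction. Its call was also lost without each array in turn, with a limma adjusted p of 0.0658 to 0.201, and with median centring it stood at 0.35. Cacna1f, the retinal channel, and Cacna1s, the skeletal muscle channel, were at 0.05 and 0.15 and not called. A second Cacna1s probe was well above background in no AMA pool and in all 3 YMA pools, so no fold is given for it.

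The T-type channels open near the resting potential and support burst firing. Cacna1h gave the widest disagreement between probes among them. Its brightest probe, the 3′-most, had log2 ratios of 0.50, 0.20 and -0.04 and was not called. Each of the 3 probes is annotated to a different transcript entry, and the part of this in their values was not tested. Mean log2 intensity was 11.19 for the brightest probe, against 7.53 and 7.35 for the dimmer ones. The 2 dimmer probes lie 57.6 and 58.6 kb upstream, and both were called lower. The first of them had -0.26, -0.27 and -0.12 (limma adjusted p = 0.0428) and the second had -0.16, -0.33 and -0.32 (limma adjusted p = 0.0312). Their log2 intensities were 7.41, 7.29 and 7.56 in AMA pools against 7.67, 7.56 and 7.68 in YMA pools for the first, and 7.32, 7.15 and 7.17 against 7.48, 7.48 and 7.49 for the second. Neither overlapped. The brightest probe lay above the second by 0.49 ± 0.19 (SD, n = 3 arrays), with a limma adjusted p of 0.0360. With median centring this difference turned to -0.11 and was not called (limma adjusted p = 0.375). Its call was also lost with the processed signals and without each array in turn (limma adjusted p = 0.0519 to 0.222). The second upstream probe kept a negative ratio in all 15 alternatives, from -0.36 to -0.24, and so did the first, from -0.29 to -0.15. With median centring, though, both lay above the median of all genes, by 0.14 and 0.11. The call of the first was lost with the processed signals, without background correction, with offset 16 and without each array in turn (limma adjusted p = 0.0535 to 0.217). That of the second was lost with the processed signals and without array 2 or array 3 (limma adjusted p = 0.0988 to 0.152).

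The first 30 bases of the 3 Cacna1h probes are given because their values disagree. They lie on the minus strand of mm9 at chr17:25511235-25511294, chr17:25568825-25568884 and chr17:25569818-25569877, in the order given, and none holds a run of 10 or more bases in which 2 letters alternate.
Cacna1h, brightest and 3′-most probe: caaagctaaggggaggggaggggcaaagca
Cacna1h, probe 57.6 kb upstream: tctctaccttgtgtgtttaactgtataaat
Cacna1h, probe 58.6 kb upstream: cttcttctgcctcgggcaaaccacgcggcc

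The other T-type genes were not called. Cacna1g had ratios of -0.10, -0.20 and -0.32 by its brightest probe, with a limma adjusted p of 0.0622 and no overlap between AMA and YMA pools. Its other probe was at -0.02. Cacna1i was at 0.07 by its brightest probe and at -0.12 by the other.

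Of the 4 alpha2delta subunits, which traffic calcium channels to the membrane and bind gabapentin-type drugs in the case of Cacna2d1 and Cacna2d2, none was called. Cacna2d1 was at -0.02 and 0.08 by its 2 probes, Cacna2d2 at -0.15 and -0.14, Cacna2d3 at 0.10 and Cacna2d4 at -0.03. At an unadjusted p below 0.05 none of their 6 probes passed in limma either.

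The intracellular beta subunits, which bind the pore subunit and promote its surface expression, held 2 called genes of opposite direction. Cacnb1 had log2 intensities of 8.49, 8.62 and 8.40 in AMA pools, against 8.77, 8.79 and 8.74 in YMA pools, with no overlap. Its log2 ratio was -0.26 ± 0.09 (SD, n = 3 arrays), a ratio of 0.833 (limma adjusted p = 0.0316). Cacnb1 stayed negative in all 15 alternatives and lost its call in 4, with a limma adjusted p of up to 0.0985: with the processed signals and without each array in turn. With median centring it stood at -0.63.

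Cacnb4, the subunit mutated in the lethargic mouse, was higher in AMA pools by loess scaling, and turned to -0.34 with median centring, which is 0.06 above the median of all genes there. Its log2 intensities were 10.15, 10.27 and 10.22 in AMA pools and 9.97, 10.02 and 10.07 in YMA pools. The AMA pools lay above all YMA pools. The log2 ratio was 0.19 ± 0.05 (SD, n = 3 arrays), 1.14-fold, with a limma adjusted p of 0.0429. The call was lost in 7 alternatives, those without each array among them, with a limma adjusted p of up to 0.257. Cacnb3 was nearly alike on the 3 arrays, at 0.13, 0.13 and 0.10, and was not called (limma adjusted p = 0.0998). Cacnb2 was at -0.02 and 0.15 by its 2 kept probes, and one more probe was not kept.

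The first 30 bases of the Cacnb1 and Cacnb4 probes, the 2 called calcium channel genes, are as follows. Both lie on the minus strand of mm9, at chr11:97866536-97866595 and chr2:52289964-52290023.
Cacnb1: ttggaagatgcctgcgagcacctggctgag
Cacnb4: cgacataggctttgaggctgccgaaacaaa

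**Figure D3:**
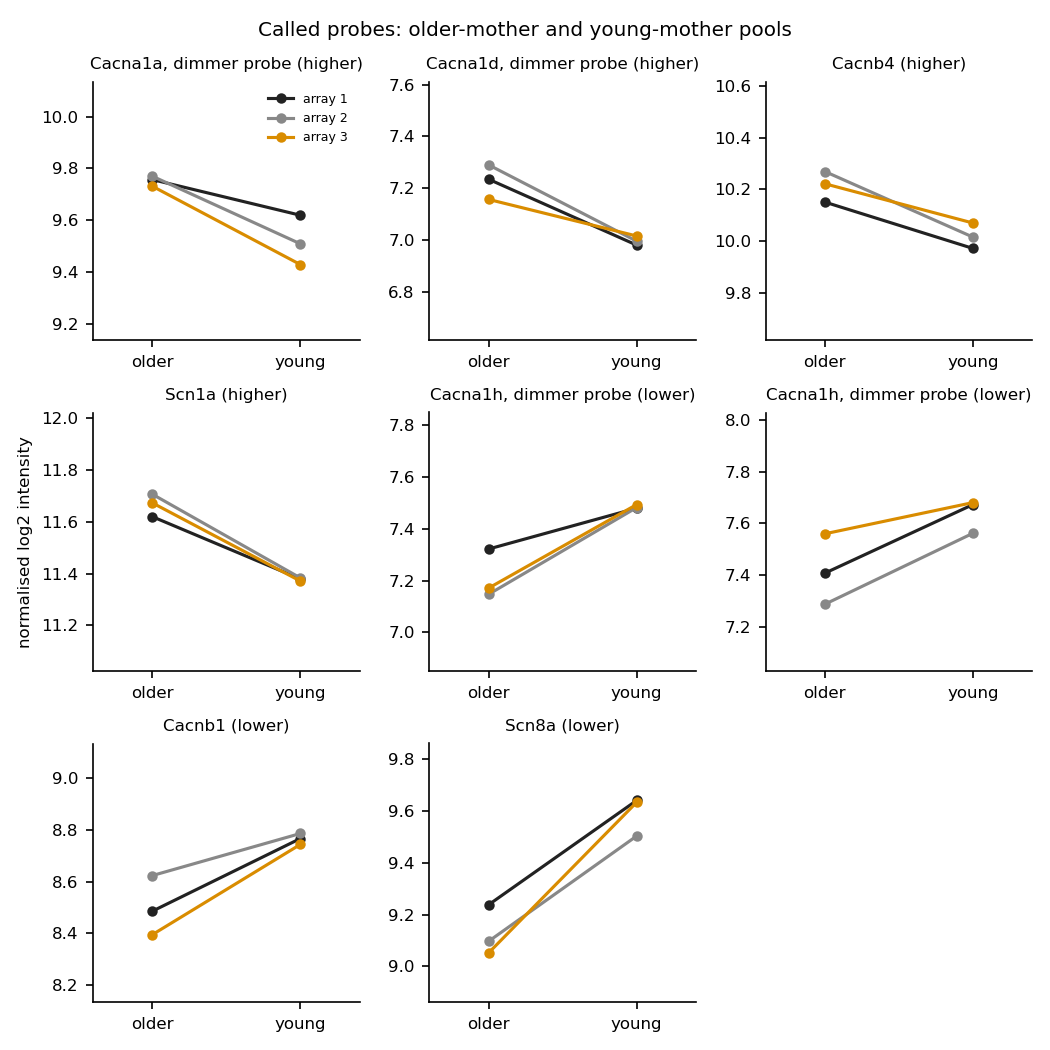
Normalised log2 intensity of 8 of the 9 called channel probes in AMA pools (left) and YMA pools (right); a line joins the 2 pools of 1 array. Each panel has its own axis range of the same height. For each of the 8 probes the AMA and YMA pools do not overlap, and neither do they for 41.9% of all kept probes. The 8 are drawn because they were called, so their separation is no further result. With median centring the ratios of Scn1a, Cacnb4 and Cacna1a turn negative, as does the median of all genes (-0.405). They lie 0.08, 0.06 and 0.14 above that median. The direction of Cacna1d turns with the processed signals and without background correction.

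Disagreement between probes of one gene was common in the channel genes and over the whole array. Of 14 genes with at least 2 kept probes, 9 had probes of different sign, against 45.1% of all such genes on the array, and 5 had probes that differed in call, against 29.9%. None had probes called in opposite directions. Of the 19 pairs of a brightest and another probe, 5 differed at a limma adjusted p below 0.05 (26.3%), against 14% of all 6479 pairs. The 5 pairs were the 2 of Scn8a and 1 each of Scn1a, Scn2a and Cacna1h. Both Scn8a pairs share its brightest probe, the one with the G and T run of 16 bases. They are therefore not separate cases, and the part of the run in them was not tested. The median size of the difference was 0.19 over the 19 pairs and 0.12 over all pairs. The count was 1 with the processed signals and without array 1, and 0 without array 2 or array 3.

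**Figure D4:**
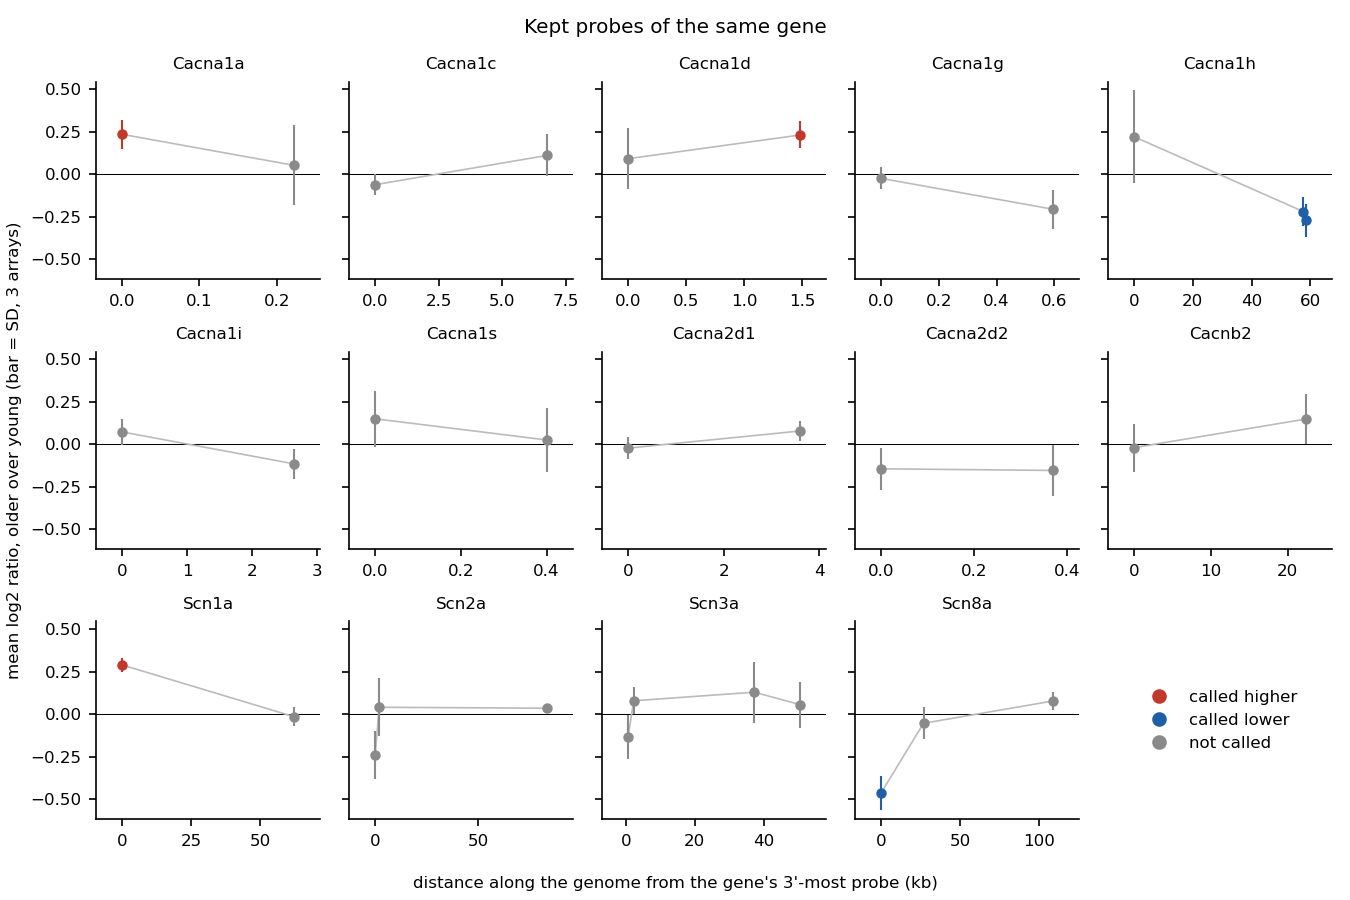
Mean log2 ratio of AMA over YMA for each kept probe of the 14 channel genes with at least 2 kept probes, against its distance along the genome from the gene's 3′-most probe in kb. Bars are the SD over 3 arrays; red and blue mark probes called higher and lower. In Scn8a and Scn2a the 3′-most probe is the lowest, and in Cacna1h it is the highest by loess scaling. With median centring both upstream Cacna1h probes lie above the 3′-most one.

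The channel genes share features that the choice by symbol did not use. They are long, with a median gene length of 111055 bp, against 20625 bp over the 16777 of 17699 genes with a length in the RefSeq table. Length did not order the ratios: Spearman's rho between ratio and length was 0.10 over the 29 genes and 0.06 over all genes. The letters of the probe went with the ratio a little more: rho between the number of A bases and the ratio was 0.30 over the 48 channel probes and 0.24 over all kept probes, and for T bases it was -0.20 and -0.17. These correlations are across probes on the same arrays, which are not independent replicates. The longest stretch shared by probes of different channel genes was 13 bases.

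The genes that bind or work beside these channels were counted on the same scale. Over 6 lists with 105 measured genes, 9 were higher and 11 lower (19.0% called), close to the 19.5% of all genes, with a median log2 ratio of -0.04. Without array 3, 1 was higher and none lower, and without array 2, 1 was higher and 2 were lower. In the same fits 0.105% and 2.65% of all kept probes were called. With median centring 85 of the 105 were called lower, and so were 17010 of all 27631 kept probes. A direction below that turns there is marked. Calm2, Akap5, Sptbn4, Hcn3, Kcna4, Kcnd2 and Kcnd3, all called lower, lay between -1.23 and -0.64 with median centring. Of the called genes named below, each except Gem lost its call in at least 1 alternative.

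The calcium channel gamma family, whose members mostly serve as AMPA receptor auxiliary subunits, had 1 of 7 called. Cacng2 (stargazin) was higher, with ratios of 0.29, 0.30 and 0.13 and a limma adjusted p of 0.0397, and turned to -0.30 with median centring. Of 12 partners of sodium channels 2 were higher and 1 lower. Fgf11, an intracellular fibroblast growth factor homologue, was at 0.26 (limma adjusted p = 0.0284) and Nrcam, an adhesion molecule of initial segments and nodes, at 0.19 (limma adjusted p = 0.0476). Both turned negative with median centring (-0.26 and -0.50). Sptbn4, the spectrin under the initial segment, was at -0.18 (limma adjusted p = 0.0448). Ank3, the ankyrin that anchors sodium channels there, was at 0.17, 0.20 and 0.10 on the arrays with a limma adjusted p of 0.0636 and -0.43 with median centring, and Fgf14 was at -0.04.

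Of 23 partners of calcium channels 2 were higher and 4 lower. Gem, a small GTPase that binds calcium channel beta subunits and suppresses calcium currents, had ratios of 1.51, 1.22 and 1.25, a mean of 1.32 ± 0.16 (SD, n = 3 arrays), 2.50-fold, with a limma adjusted p of 0.0113. The other GTPases of its family did not pass: Rem2 was at 0.30 with ratios of -0.03, 0.38 and 0.53 (limma adjusted p = 0.112), and Rrad was well above background in no AMA pool (limma adjusted p = 0.205). The Gem ratio was larger in size than that of any of the 29 channel genes, and it was called in all 15 alternatives, at 1.18 with median centring to 2.01 with the processed signals. Rims4, of the presynaptic active zone, was called lower (limma adjusted p = 0.0172), but it was well above background in no AMA pool and in all 3 YMA pools, so no fold is given for it. Its ratio moved with the background step, at -0.86 with the processed signals and -0.26 without background correction, and was 0.00093 with median centring. Calm2, a calmodulin gene, was at -0.33 and Akap5, which holds kinases and calcineurin near L-type channels, at -0.28, with limma adjusted p of 0.0188 and 0.0202.

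Of 36 voltage-gated potassium channel pore subunits 3 were higher and 5 lower. The 4 of smallest p were all lower: Kcna4 at -0.41, Kcnd3 at -0.30, Kcnh2 at -0.25 and Kcnd2 at -0.20, with limma adjusted p between 0.0152 and 0.0362. Kcna4, Kcnd2 and Kcnd3 encode pore subunits of rapidly inactivating A-type currents. Of 6 HCN and NALCN channel genes Hcn3 was lower at -0.33 (limma adjusted p = 0.0176) and the others were not called. Of 21 genes of calcium stores, pumps and exchangers Atp2b1, a plasma membrane calcium pump, was higher at 0.27 (limma adjusted p = 0.0269), turning to -0.39 with median centring, and no other was called.

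**Figure D5:**
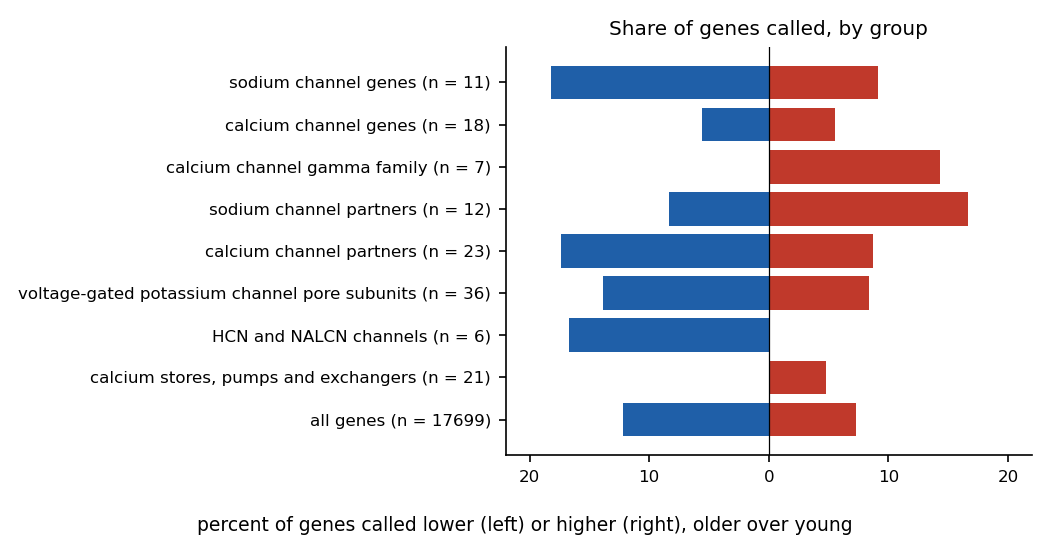
Percent of genes called lower (blue, left) or higher (red, right) in AMA pools relative to YMA pools, by gene group, with the number of measured genes in brackets; each gene is represented by its brightest kept probe. The sodium channel genes have 1 higher and 2 lower of 11, and the calcium channel genes 1 higher and 1 lower of 18. Of all genes 7.29% are higher and 12.2% lower. With median centring 23 of the 29 channel genes are called lower, and so are 17010 of all 27631 kept probes.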

How the data were processed

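Hippocampal total RNA was labelled in 2 colours, per the labels' protocols, and 3 arrays of 1 slide were scanned once, which leaves no batch to model. Per the file headers, Agilent Feature Extraction 10.10.1.1 gave the mean and median spot signals and median local backgrounds as raw intensity values, and processed signals, an intensity corrected for background and dye. Flags (other values, 0 or 1) are also per the file headers. The deposited table gives each spot's log2 ratio, with Cy3 over Cy5; its steps are not stated, but normexp with offset 50 and loess on median signals gave the same values (largest difference 5.0e-10).

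Mean signals were background-corrected here (normexp, offset 50) and loess-normalised within each array (span 0.3), with no weight for control, non-uniform and outlying spots. Spots of a probe were averaged. limma 3.58.1 in R 4.3.3 fitted the mean log2 ratio over 3 arrays (2 residual degrees of freedom), with Benjamini-Hochberg adjustment over all 27631 kept probes. Levels are channel values after Aquantile scaling. A gene is represented by its brightest kept probe. Symbols were updated through RefSeq accessions for 1651 probes (Scn2a is Scn2a1 in the files). Probe coordinates are those of the file headers' build, mm9. The scripts were tested on simulated data.

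The genes, lists and tests were chosen with earlier results of these data known. Named with values were called channel genes, the next 8 by intensity, genes whose probes differed in sign or call, up to 4 called genes of each related list, and Gem, Rem2, Rrad, Ank3 and Fgf14. Values of other channel genes and of cell type markers were added after they were seen, with no alternatives run for the single gene. Alternatives changed background, normalization, filter, model, gene summary and arrays. Some channel genes that the rule names enter the counts and fits and are not reported here.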

Additional observations from a re-analysis of the deposited data

How the results depend on the processing

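Group and dye were not separated in this design, 3 arrays limit the precision, and AMA signals lay nearer to background than YMA signals. Pairs of counts are higher first, then lower. Centring each array on its median, which puts the median of all genes at -0.40 in place of -0.03, called 5997 and 17010 of all probes, 7 and 35 channel probes, 23 lower channel genes, 85 lower related genes and 16 probe pairs, with a median channel gene at -0.516, or -0.111 relative to all genes. It turned the sign of these log2 ratios: Scn1a -0.33, Cacnb4 -0.34, Cacnb3 -0.50, Scn2b -0.52, Scn3b -0.56, Cacna2d3 -0.52, Cacna2d1 dimmer probe -0.54, Cacna1i -0.53, Cacna1h brightest -0.38, Cacna1d brightest -0.20, Cacna1a -0.52 and -0.26, Scn2a dimmer probes -0.55 and -0.28, Scn3a dimmer probes -0.32 and -0.48, Scn8a dimmer probes 0.064 and -0.24, Ank3 -0.425, Atp2b1 -0.388, Cacng2 -0.299, Fgf11 -0.26, Nrcam -0.50, Rem2 -0.067, Rims4 0.00093, Rrad 0.34, and the probe differences of Cacna1h (-0.11) and Scn1a (-0.10). Processed signals called 1169 and 1452 of all probes, 0 and 1 channel probes and genes (Scn8a), 3 and 7 related genes and 1 probe pair, with a median channel gene at 0.047; Cacna1d's dimmer probe turned to -0.025, a dimmer Scn8a probe to 0.13 and Fgf14 to 0.044. Without background correction 5 channel genes were lower and 9 pairs differed, and the same Cacna1d and Scn8a probes stood at -0.074 and 0.032. Offset 16 gave 2 and 3 channel probes, 1 higher gene, 3 higher related genes and 3 pairs. The deposited table gave 1 higher channel gene, 5 higher related genes and 3 pairs; no filter and averaging a gene's probes also gave 1 higher gene. Array weights called 5754 and 7552 of all probes, 14 and 10 channel probes, 10 and 7 genes and 24 and 27 related genes, with Cacna2d1 at 0.023, Cacnb2 at 0.034 and Fgf14 at 0.019. Leaving out each array in turn gave 29 to 1459 higher and 0 to 1906 lower of all probes, 0 to 3 higher and 0 to 2 lower channel probes, 0 to 2 higher and 0 to 1 lower genes, 1 to 7 higher and 0 to 9 lower related genes and 0 to 1 pairs; the counts were lowest without array 3, where limma found 8423 probes and 15 channel probes at an unadjusted p below 0.05. Over these fits the sign turned for Cacna1a (-0.053 to 0.179), Cacna2d1 (-0.058 to 0.0042), Cacnb2 (-0.063 to 0.061), Scn1a's dimmer probe (-0.044 to 0.013), a Scn2a dimmer probe (-0.028 to 0.135), a Scn3a dimmer probe (-0.0062 to 0.127) and Fgf14 (-0.080 to 0.0064). The cause of these shifts was not tested. The fit pairs the AMA and YMA pools of each array; with separate channels and no replicate block, 2956 and 3965 of all probes, 5 and 6 channel probes, 3 and 4 channel genes and 11 and 16 related genes were called, Scn2a, Scn2b and Cacna1g among them.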
